A study of Mus musculus with 5 samples.

Results

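The CXC chemokines Cxcl1, Cxcl2, Cxcl9, Cxcl10, Cxcl12, Cxcl14 and Cxcl16 were followed in single cells of mouse kidney through obstruction of the ureter and its relief. The 7 genes are given by name, and all were found by symbol among the 28692 gene identifiers of the droplet files. All mice were C57/BL6 animals of 8 weeks, and the labels give no other allele. Kidneys were taken after a sham procedure (day 0), at day 2 or day 7 of unilateral ureteric obstruction (UUO), or on day 14 of the experiment, which was 7 days after an obstruction was reversed. Each of these 4 groups was 1 droplet library pooled from 3 mice. The spread between animals is therefore unknown, no test between groups was possible, and the intervals given are 95% intervals for counting error only.

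CXC chemokines are small secreted proteins that guide leukocytes through G protein-coupled receptors. Cxcl1 and Cxcl2 attract neutrophils through Cxcr2 and are early targets of NF-kappaB, while Cxcl9 and Cxcl10 are induced by interferons and attract T and natural killer cells through Cxcr3. Cxcl12 is made constitutively by stroma and vessels and acts through Cxcr4, with Ackr3 as a scavenger. Cxcl14 is made by many epithelia and fibroblasts. Cxcl16 is made as a transmembrane protein that Adam10 and Adam17 can shed, and its receptor is Cxcr6.

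Cxcl1 and Cxcl2 are neighbours on chromosome 5 with 10755 bases between them, and Cxcl9 and Cxcl10 lie on the same chromosome with 18558 bases between them (GRCm38, GENCODE annotation). The genes span chr5:90891241-90893115 (Cxcl1), chr5:90903871-90905938 (Cxcl2), chr5:92321347-92328079 (Cxcl9) and chr5:92346638-92348889 (Cxcl10). The others are single, at chr6:117168535-117181367 (Cxcl12), chr13:56288643-56296551 (Cxcl14) and chr11:70453983-70459984 (Cxcl16). The 250 bases before the RefSeq start of each gene of both neighbouring pairs are shown because these genes respond to NF-kappaB or to interferons. The sequences are from RefSeq (GRCm38.p6), written 5′ to 3′ along the gene. For Cxcl1 and Cxcl2 the RefSeq start lies inside the GENCODE span given above, so the last bases of those windows fall within that span, and distances to the start are to the RefSeq start. Capitals mark matches, on either strand, to the interferon-stimulated response element, searched as GAAA, 2 bases of any kind and GAAA, or to a kappaB form, searched as GGG, 3 bases of any kind and TTCC.
Cxcl1, chr5:90890995-90891244, plus strand: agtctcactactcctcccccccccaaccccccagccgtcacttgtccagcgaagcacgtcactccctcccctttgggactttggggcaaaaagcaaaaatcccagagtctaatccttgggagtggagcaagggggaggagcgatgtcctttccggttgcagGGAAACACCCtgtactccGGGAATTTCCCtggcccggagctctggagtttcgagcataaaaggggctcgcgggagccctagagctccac
Cxcl2, chr5:90903649-90903898, plus strand: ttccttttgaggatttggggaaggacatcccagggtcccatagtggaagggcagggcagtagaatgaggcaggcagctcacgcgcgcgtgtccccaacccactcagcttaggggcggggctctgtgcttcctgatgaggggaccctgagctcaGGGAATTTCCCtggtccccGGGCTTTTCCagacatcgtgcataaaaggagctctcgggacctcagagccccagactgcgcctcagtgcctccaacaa
Cxcl9, chr5:92328080-92328329, minus strand: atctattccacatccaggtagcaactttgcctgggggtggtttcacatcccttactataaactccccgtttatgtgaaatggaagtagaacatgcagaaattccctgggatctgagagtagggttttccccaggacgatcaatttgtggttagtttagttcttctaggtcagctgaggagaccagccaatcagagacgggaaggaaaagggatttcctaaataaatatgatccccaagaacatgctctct
Cxcl10, chr5:92348890-92349139, minus strand: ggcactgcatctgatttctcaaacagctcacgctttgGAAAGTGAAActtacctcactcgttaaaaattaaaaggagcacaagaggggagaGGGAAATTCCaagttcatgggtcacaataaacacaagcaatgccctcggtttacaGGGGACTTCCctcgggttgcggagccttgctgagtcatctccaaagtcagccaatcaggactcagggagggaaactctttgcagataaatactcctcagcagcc

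In Cxcl1 the kappaB letters began 71 bases before the start on the gene's strand and 89 and 70 bases before it on the other strand, the nearer of which overlaps the first match. In Cxcl2 they began 97 and 78 bases before the start, with an overlapping match on the other strand at 96. The Cxcl10 window held kappaB letters 159 and 104 bases before the start and the interferon element 213 bases before it. The Cxcl9 window held neither string, which says only that these letters are not in this window. Of 32817 promoter windows of the same length, 4.65% held the kappaB letters and 2.97% the interferon element. Of the remaining genes with a window, Cxcl14 held the interferon element and Cxcl12 neither.

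After filtering, 3746 sham, 2159 day 2, 4287 day 7 and 3140 reversed cells remained. The sham library stood apart: its cells as deposited had a median of 2480.5 unique molecular identifiers (UMIs) and 40.6% mitochondrial UMIs, against 4709 to 5668 UMIs and 3% to 16.2% in the others. Of 16730 barcodes, 146 occurred in more than 1 library. Cells were put in classes by marker genes that did not include the chemokines. Each class expressed its defining markers, which the gate itself requires, although not every marker of every list was detected. In sham 34 of 41 phagocyte and 7 of 9 stromal markers had a UMI, as did 13 of 14 T or natural killer and 4 of 7 B cell markers, and in the reversed library 6 of 7 neutrophil markers. Tubule cells numbered 3333, 1157, 701 and 1599 in the order sham, day 2, day 7 and reversed, which is the order of all lists of values below. Mononuclear phagocytes, the macrophages, monocytes and dendritic cells, numbered 58, 518, 2329 and 621. Stromal cells were few at 7, 13, 74 and 75, as were neutrophils at 0, 11, 26 and 13. Levels are UMIs of a gene per 1000000 UMIs of the class (CPM) and ratios are log2 ratios of levels.

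The genes differed in the class that held their transcripts. Tubule cells were 53.6% of day 2 cells and held 247 of the 380 Cxcl1 UMIs, or 65%. Phagocytes were 24% of day 2 cells and held 80.0% of the Cxcl2, 87.4% of the Cxcl9, 70.8% of the Cxcl10, 85.3% of the Cxcl14 and 62.5% of the Cxcl16 UMIs. Stromal cells were 1.73% of day 7 cells and held 72.6% (70.0 to 75.2%) of the Cxcl12 and 49.5% (46.3 to 52.7%) of the Cxcl14 UMIs. In sham, tubule cells were 89% of cells and held 81.1% of the Cxcl16 and 75.9% of the Cxcl12 UMIs. Such shares depend on how many cells of a class were recovered as well as on the RNA of each.

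**Figure D1:**
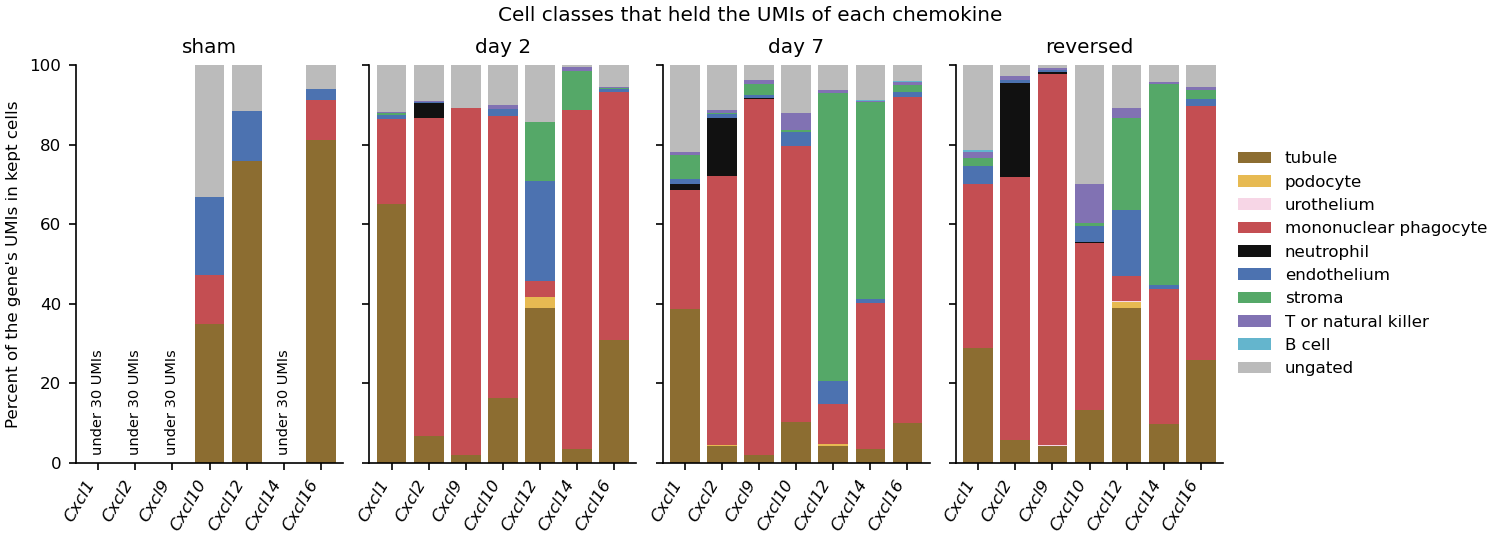
Percent of each chemokine's UMIs (y axis) that lay in each cell class, with 1 panel per library, for genes with at least 30 UMIs. Tubule holds 65% of Cxcl1 on day 2, phagocytes 87.4% to 93.5% of Cxcl9 from day 2 on, and stroma 72.6% of Cxcl12 on day 7.

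Cxcl1 had no UMI in 3333 sham tubule cells, which limits the share of cells with a UMI to 0.09% but not the share expressing the gene at this depth, and was present in tubule of the 3 later libraries. Its tubule levels from day 2 on were 28.9 (25.4 to 32.7), 22.9 (19.2 to 27.1) and 5.60 (4.24 to 7.25) CPM, so the reversed library lay below both obstructed ones and none overlapped sham. Against a floor of 3 counts for the sham library, day 2 was at least 107-fold higher and the reversed library at least 20.7-fold higher. These are log2 bounds of 6.74 and 4.37, which were 3.82 and 2.12 with cells of at most 20% mitochondrial UMIs. The log2 ratio was -0.33 (-0.65 to -0.02) for day 7 over day 2 and -2.03 (-2.51 to -1.58) for reversed over day 7, the latter -1.07 at that limit.

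Within the tubule the gene was found in injured and proximal cells. Injured tubule cells, gated by genes such as Havcr1 (kidney injury molecule) and Krt20, numbered 286, 260 and 125 from day 2 on and had 51.1 (43.1 to 60.2), 38.7 (31.4 to 47.1) and 28.1 (19.6 to 39.1) CPM of Cxcl1. Proximal tubule cells had 33.7, 14.1 and 3.07 CPM. The reversed over day 7 ratio was -2.20 (-3.24 to -1.14) in proximal tubule and -0.46 (-1.06 to 0.11) in injured tubule, where the interval includes 0. These 2 intervals do not overlap, and the segment ratios were not recomputed at the 20% mitochondrial limit. Loop of Henle cells had at most 1 UMI of Cxcl1 in a library, intercalated and distal convoluted cells at most 3, and collecting duct principal cells 0, where the limit on cells with a UMI is 9.68% in the smallest group. On day 7, 14 tubule cells of no assigned segment had 12 UMIs.

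Few cells carried it. From day 2 on a UMI was found in 6.05%, 5.71% and 1.19% of tubule cells (median depths 6143, 7511 and 5157 UMIs) and in 0.781%, 0.552% and 1.15% of T and natural killer cells, which should lack it (median depths 3538, 3504 and 3163 UMIs). With each cell thinned to 1000 UMIs the tubule shares were 1.64%, 1.28% and 0.25%, and no T or natural killer cell had a UMI, where the limits on cells with a UMI are 2.34%, 0.829% and 1.15%. On day 2, 15 tubule cells with 5 or more UMIs held 61.5% of the tubule Cxcl1. Their median summed level of phagocyte markers was 367 CPM against 313 CPM in the remaining tubule cells and 20777 CPM in phagocytes. Phagocytes had 14.1 (11.2 to 17.5), 6.35 (5.19 to 7.70) and 16.8 (13.3 to 20.8) CPM of Cxcl1 in these libraries, day 7 being the lowest of the 3. Few phagocytes carried it: 13, 44 and 18 cells had a UMI, and in the same order 3 cells held 68.3%, 12 cells held 68.3% and 4 cells held 59.8% of the class's Cxcl1 UMIs, so this order and the Cxcl1 ratios in phagocytes rest on those cells.

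Cxcl2, the closest relative of Cxcl1 here, was mainly a phagocyte and neutrophil transcript. Its phagocyte levels were 17.6 (4.80 to 45.1), 966 (940 to 991), 236 (228 to 243) and 566 (545 to 587) CPM, so day 2 was highest, followed by the reversed library and then day 7, with no overlap of intervals. The log2 ratios were 5.78 (4.42 to 7.65) for day 2 over sham, -2.03 (-2.09 to -1.98) for day 7 over day 2, 1.26 (1.19 to 1.33) for reversed over day 7 and 5.01 (3.65 to 6.88) for reversed over sham. The sham value rests on 4 UMIs.

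Among the 3 later libraries both main kinds of phagocyte were lowest on day 7. From day 2 on macrophages had 1149, 312 and 689 CPM and Ly6c2-high monocytes, which are recently derived from blood, 1246, 228 and 1200 CPM. The reversed over day 7 ratio was 2.39 (2.17 to 2.62) in monocytes, from 42 reversed cells, and 1.14 (1.06 to 1.23) in macrophages. Type 2 conventional dendritic cells varied less, at 151, 108 and 173 CPM. The 11, 26 and 13 neutrophils had 252, 823 and 986 UMIs, or 6622, 11053 and 23987 CPM, and thereby held 3.59%, 14.5% and 23.6% of all Cxcl2 UMIs. Summed neutrophil markers stood at 253, 276 and 137 CPM in phagocytes and 173113, 101774 and 64224 CPM in neutrophils, and their part in the phagocyte values was not tested. The neutrophil cluster held 50 cells gated as neutrophils, 21 gated as phagocytes and 41 ungated, so these shares depend on the gate. With classes from clusters reversed over day 7 for Cxcl2 in phagocytes was 1.12, in place of 1.26.

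At 1000 UMIs per cell Cxcl2 was found in 24.9% (21.2 to 28.9%), 9.27% (8.13 to 10.5%) and 13.7% (11.1 to 16.6%) of phagocytes and in 2.34%, 3.31% and 2.67% of T and natural killer cells, which should lack it. Without thinning these shares were 53.5%, 27.9% and 27.1% and 13.3%, 12.4% and 11.1%, at median depths of 10073, 6541 and 6799 and 3538, 3504 and 3163 UMIs. Tubule cells had 1 Cxcl2 UMI in sham and 55.3, 42.1 and 23.7 CPM later. T and natural killer cells had 35.7, 32.6 and 38.4 CPM and endothelium 28.4, 33 and 17.1 CPM. The tubule level was above both of these classes on day 2 and day 7 and between them in the reversed library, and its interval did not overlap that of endothelium on day 2 but overlapped that of T and natural killer cells on day 2 and of both on day 7. On day 2, 6 cells held 37% of the tubule Cxcl2, and in the reversed library 8 cells held 34%. A profile of free RNA was estimated as the sum of all deposited barcodes of the library. It includes transcripts of the cells themselves, so subtracting it can also remove RNA of the class. With that profile subtracted, the tubule levels were 34.4, 20.3 and 2.41 CPM.

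**Figure D2:**
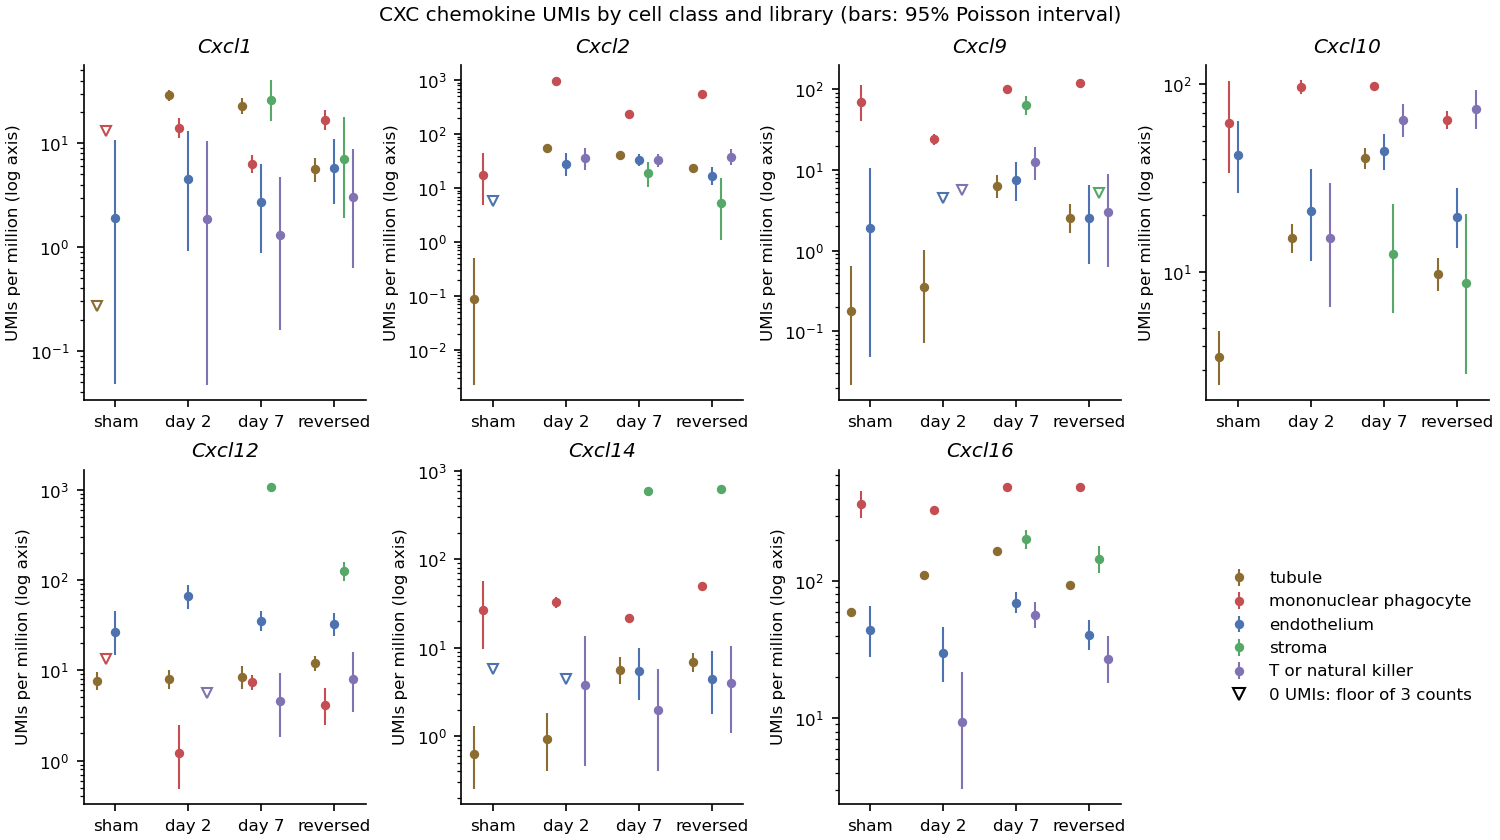
Level of each chemokine in CPM (log axis) by library, for classes with at least 30 cells. Points are levels, bars are exact 95% Poisson intervals and open triangles mark 0 UMIs at a floor of 3 counts. Cxcl2 in phagocytes lies at 17.6, 966, 236 and 566 CPM, while Cxcl16 in phagocytes stays between 331 and 490 CPM.

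Early NF-kappaB response genes were set beside this pair. In tubule 11 of 11 measured genes of that list were 2-fold or more higher on day 2 than in sham, with a median ratio of 2.85, and examples are the cytokine gene Il1b (5.37), which phagocytes also express, Relb (4.41) and the adhesion molecule Icam1 (3.78). Summed phagocyte markers in tubule cells stood at 97 CPM in sham and 662 CPM on day 2. With free RNA subtracted the list count was 11 of 11, with a median of 2.91, and the share of all genes was not counted under that setting. By totals, among all tubule genes with at least 30 UMIs in the pair, 27.1% were 2-fold or more higher and 4.66% lower. Of 5 chemokines measured in that pair 3 were higher, Cxcl1, Cxcl2 and Cxcl10. In phagocytes 4 of 13 list genes were higher in day 2 over sham, led by Ier3 (2.61), Nfkbia (1.31) and Il1b (1.27), against 13.4% of all genes higher and 9.53% lower. There Cxcl2 was higher, and Cxcl9 was lower only with the 1 sham cell that held all its sham UMIs (-1.56, and 0.38 against the floor of 3 counts for sham without the richest cells). Sham Cxcl10 also came from 1 cell, and its ratio was 0.64, or 2.50 against that floor. In that pair 6 chemokines were measured. In reversed phagocytes 9 of 13 list genes were higher than in sham, against 13.3% of all genes higher and 6.02% lower. Cxcl2 was past 2-fold there, and so were Cxcl9 (2.72) and Cxcl10 (1.92) without the richest cells, against that floor, but not with them. Between the later libraries 1 of 14 list genes was higher and 1 lower in phagocytes on day 7 relative to day 2 (median 0.05), while Cxcl2 was -2.03, against 11.1% and 3.7% of all genes. For reversed over day 7, 2 of 14 were higher there (median 0.43), while Cxcl2 was 1.26, against 3.46% of all genes. In tubule 6 of 13 were lower for reversed over day 7, against 9.35%, and 3 of 13 were higher for day 7 over day 2, against 8.97%. For reversed over sham 11 of 11 were higher in tubule (median 3.01), against 26%. Summed phagocyte markers in tubule cells stood at 662, 2326 and 910 CPM from day 2 on. With free RNA subtracted 6 of 9 were lower for reversed over day 7, 0 of 11 higher for day 7 over day 2 and 8 of 8 higher for reversed over sham. The shares of all genes were not counted with that subtraction. With trimmed-mean (TMM) scaling in place of that subtraction the first 2 of the tubule counts were 1 and 1 of 13. Of all tubule genes 461 of 12370 were then lower for reversed over day 7 and 557 of 12122 higher for day 7 over day 2.

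Genes that tissue digestion is known to induce were counted as well. In tubule 10 of 10 of them were higher on day 2 than in sham (median 2.65), against 27.1% of all genes, among them Junb (3.10). At the 20% mitochondrial limit that count was 6 of 10, and the share of all genes was not counted at that limit. For reversed over sham 10 of 10 were higher in tubule (median 2.73), against 26% of all genes, and 2 of 10 for day 7 over day 2, against 8.97%. With TMM scaling the latter count was 0 of 10, where 557 of 12122 tubule genes were higher. For reversed over day 7 in tubule 0 of 10 were higher and 0 lower (median -0.44), against 4.82% and 9.35% of all genes. In phagocytes 3 of 10 were higher and 0 lower on day 2 relative to sham (13.4% and 9.53% of all genes), 3 of 10 were lower and 1 higher on day 7 than on day 2 (3.7% and 11.1% of all genes), and 4 of 10 were higher after reversal than on day 7 (3.46% of all genes), led by Egr1 (1.29) and Atf3 (1.25). For reversed over sham in phagocytes 6 of 10 were higher (median 1.36), against 13.3% of all genes. The part of digestion in the Cxcl1 and Cxcl2 ratios was not tested.

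Scaling matters for tubule, where the median mitochondrial share of kept cells was 35%, 21.2%, 11.4% and 28.4%. With TMM scaling the median ratio of all tubule genes for day 2 over sham was 0.03, against 0.57 by totals. Of the tubule genes past 2-fold, the share that was higher was 85.3%, 82.9%, 34% and 97.7% by totals and 57.7%, 50.5%, 68.5% and 74.5% with TMM, in the order day 2 over sham, day 7 over day 2, reversed over day 7 and reversed over sham. The NF-kappaB genes of tubule had a median of 2.31 for day 2 over sham under TMM, with 11 of 11 past 2-fold. Of all 11777 tubule genes measured in that pair, 1678 were higher and 1228 lower under TMM.

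Cxcl9 lay almost wholly in phagocytes, which held 87.4%, 89.6% and 93.5% of its UMIs from day 2 on. Its phagocyte levels in those libraries were 23.9 (20.1 to 28.2), 100 (95.6 to 105) and 119 (109 to 129) CPM, with day 2 lowest. All 16 sham UMIs of the class came from 1 cell, so the sham level of 70.5 CPM describes that cell. Day 7 over day 2 was 2.07 (1.82 to 2.33) and reversed over day 7 0.24 (0.10 to 0.38). In the reversed library 1 cell held 26.7% of these UMIs. Without the richest cell of each library reversed over day 7 was -0.16 and day 2 over sham 0.38 in place of -1.56.

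Several kinds of phagocyte had Cxcl9. From day 2 on macrophages had 20.2 (15.4 to 26.1), 127 (120 to 134) and 165 (151 to 181) CPM. In the reversed library 4 cells held 59.8% of the phagocyte Cxcl9 UMIs. The macrophage level was not recomputed without the richest cell given above, so its order relative to day 7 may rest on that cell. Type 1 conventional dendritic cells, which present antigen to cytotoxic T cells, had 78.3 (64 to 94.9) CPM on day 7 and 142 (118 to 171) CPM in the reversed library. On day 2 the 28 such cells had 5 UMIs, or 14 (4.56 to 32.8) CPM. Ccr7-positive dendritic cells, which move towards lymph nodes, had 170 (138 to 208) CPM on day 7 and 10.7 (1.30 to 38.8) CPM in the reversed library, the latter from 2 UMIs in 25 cells. Monocytes had 39.2, 48.1 and 13.3 CPM. On day 7 a UMI was found in 13.7% of phagocytes and 4.85% of tubule cells (median depths 6541 and 7511 UMIs), and at 1000 UMIs in 4.64% and 0.713%. No tubule cell had more than 2 UMIs of it.

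Cxcl10, the neighbour of Cxcl9, was less restricted to phagocytes. Its phagocyte levels from day 2 on were 96.2 (88.4 to 105), 97.6 (92.9 to 103) and 64.6 (57.7 to 72.1) CPM, with the reversed library lowest. Day 7 over day 2 was 0.02 (-0.12 to 0.16) and reversed over day 7 -0.60 (-0.77 to -0.42), and without the richest cell of each library 0.31 and -0.89, both outside those intervals. The sham level of 61.7 CPM came from 1 cell. Without the richest cell of each library the ratios were 2.50 for day 2 over sham and 1.92 for reversed over sham, in place of 0.64 and 0.07. Macrophages had 124, 127 and 102 CPM and monocytes 109, 120 and 36.6 CPM. T and natural killer cells, which bear the receptor, had 15, 63.9 and 73.7 CPM, and single cells held 31.6% and 39.7% of those UMIs on day 7 and in the reversed library. Summed phagocyte markers in T and natural killer cells stood at 1579, 3318 and 1728 CPM, and their part was not tested.

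In tubule cells Cxcl10 was highest on day 7. The levels were 3.51 (2.49 to 4.79), 15.1 (12.6 to 17.9), 40.2 (35.2 to 45.7) and 9.72 (7.90 to 11.8) CPM, with no overlap among the 4 intervals. Few cells held these UMIs: 6 cells held 57.4% on day 2, 4 cells 33.2% on day 7 and 8 cells 53.5% in the reversed library. In sham the richest 17 cells held all 39. The intervals cover counting error and not such spread between cells, so they are too narrow for an order of the libraries. The log2 ratios were 2.10 (1.58 to 2.66) for day 2 over sham, 1.41 (1.10 to 1.73) for day 7 over day 2, -2.05 (-2.40 to -1.70) for reversed over day 7 and 1.47 (0.92 to 2.04) for reversed over sham. The last was 0.94 with TMM scaling and 0.83 as a mean of per-cell values, but 2.26 at the 20% mitochondrial limit. At that limit day 7 over day 2 was 1.01 and reversed over day 7 -0.85, and under the stricter gate day 7 over day 2 was 2.27. Summed phagocyte markers in tubule cells stood at 97, 662, 2326 and 910 CPM, against 21964, 20777, 27390 and 28142 CPM in phagocytes. Subtracting the free RNA profile gave ratios of 2.15, 1.40, -2.39 and 1.16 in the same order.

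By totals, tubule segments differed in the Cxcl10 ratio of reversed over day 7. Proximal tubule cells had 3.54, 16.3, 59.9 and 5.50 CPM, and reversed over day 7 was -3.45 (-4.08 to -2.83) there. Injured tubule cells had 26.5 (20.8 to 33.2), 47.3 (39.2 to 56.5) and 42.6 (31.9 to 55.7) CPM from day 2 on, and reversed over day 7 was -0.15 (-0.64 to 0.33). The intervals of these ratios do not overlap, but the segment ratios were not recomputed at the 20% mitochondrial limit. At that limit the ratio over all tubule cells was -0.85 in place of -2.05. On day 7, 4 proximal tubule cells with 5 or more UMIs held 60.3% of the Cxcl10 of that segment, and their median summed level of phagocyte markers was 1457 CPM against 1829 CPM in the rest.

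Interferon response genes were compared with Cxcl9 and Cxcl10. For day 2 over sham in phagocytes 4 of 8 type I genes were lower and 0 higher, and 6 of 15 interferon gamma genes were lower and 0 higher, against 9.53% of all genes lower and 13.4% higher. In phagocytes 9 of 9 type I interferon genes were 2-fold or more higher on day 7 than on day 2 (median 1.84), led by Ifit3 (2.46) and Rsad2 (2.43). Of the interferon gamma genes 5 of 16 were higher, led by the GTPase genes Iigp1 (3.85), Gbp5 (2.55) and Irgm1 (2.32). Of all genes 11.1% were higher and 3.7% lower in that pair, and of the 7 chemokines Cxcl9 and Cxcl12 were higher and Cxcl1 and Cxcl2 lower. Summed stroma markers in phagocytes stood at 21.3 CPM on day 2 and 113 CPM on day 7, and their part in the Cxcl12 ratio was not tested. For day 7 over day 2 the median ratio of the measured type I genes in T and natural killer cells was 1.92, against 0.20 for all genes. In endothelium it was 1.19, against 0.08 for all genes. The interferon gamma genes had medians of 0.41 and 0.97 in those classes. Summed phagocyte markers there stood at 1579 and 1090 CPM on day 2 and 3318 and 3144 CPM on day 7, and their part was not tested. For reversed over day 7 in phagocytes 0 of 16 interferon gamma genes and 1 of 9 type I genes were lower, against 3.46% of all genes higher and 1.63% lower, and Cxcl1, Cxcl2 and Cxcl14 were the 3 chemokines past 2-fold, all higher. For reversed over sham in phagocytes 3 of 9 type I genes were higher and 0 lower (median -0.04). Of the interferon gamma genes 2 of 16 were higher and 1 lower there, against 13.3% of all genes higher and 6.02% lower.

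For day 2 over sham in tubule 7 of 7 type I and 7 of 13 interferon gamma genes were higher, against 27.1% of all tubule genes, and Cxcl10 was past 2-fold. For reversed over sham 6 of 7 and 8 of 13 were higher, against 26%. In tubule 8 of 13 interferon gamma genes were higher in day 7 over day 2 and 10 of 15 were lower for reversed over day 7, with Iigp1 at 2.48 and -2.58. Summed phagocyte markers in tubule cells stood at 662, 2326 and 910 CPM from day 2 on. With free RNA subtracted these counts were 6 of 13 and 9 of 13, and the type I count for day 7 over day 2 was 0 of 7 in place of 5 of 8. The shares of all genes were not counted with that subtraction. By totals 8.97% of all tubule genes were higher and 1.86% lower in the first pair, and Cxcl9, Cxcl10 and Cxcl14 were past 2-fold higher. In the second 4.82% were higher and 9.35% lower, and Cxcl1, Cxcl9 and Cxcl10 were past 2-fold lower. By totals 6 of 8 type I genes were lower in the second pair. At the 20% mitochondrial limit the second interferon gamma count was 4 of 13, and the share of all genes was not counted at that limit. With TMM scaling the interferon gamma counts were 6 of 13 and 4 of 15. In the first pair 557 of all tubule genes were then higher and 547 lower, in place of 1087 and 225. In the second pair 1004 of all tubule genes were then higher and 461 lower, in place of 596 and 1156. Summed stroma markers in tubule cells stood at 15, 94 and 46.6 CPM from day 2 on, and their part in the Cxcl14 ratio was not tested. Ifng itself, in T and natural killer cells, was at 71.3 (50.5 to 97.9), 50.2 (39.6 to 62.8) and 53.5 (40.1 to 70.0) CPM from day 2 on, with overlapping intervals.

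Within phagocytes the chemokines differed in how few cells held them. On day 7 the richest 1% of phagocytes held 80.8% of the Cxcl1, 51.8% of the Cxcl10, 41.9% of the Cxcl9, 30.9% of the Cxcl2 and 5.59% of the Cxcl16 UMIs. For Cxcl14 and Cxcl12 that share was 27.0% and 20.8%. A gene with few UMIs lies in few cells whatever its spread, so the variance over the mean at equal depth is given too. It was 5.90 for Cxcl10, 4.70 for Cxcl2, 3.97 for Cxcl9 and 1.18 for Cxcl16, where counting from an even level gives a value near 1. It is not given for Cxcl1, which had 104 UMIs in day 7 phagocytes, or for Cxcl14. Cxcl12 had 120 UMIs in 119 day 7 phagocytes.

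**Figure D3:**
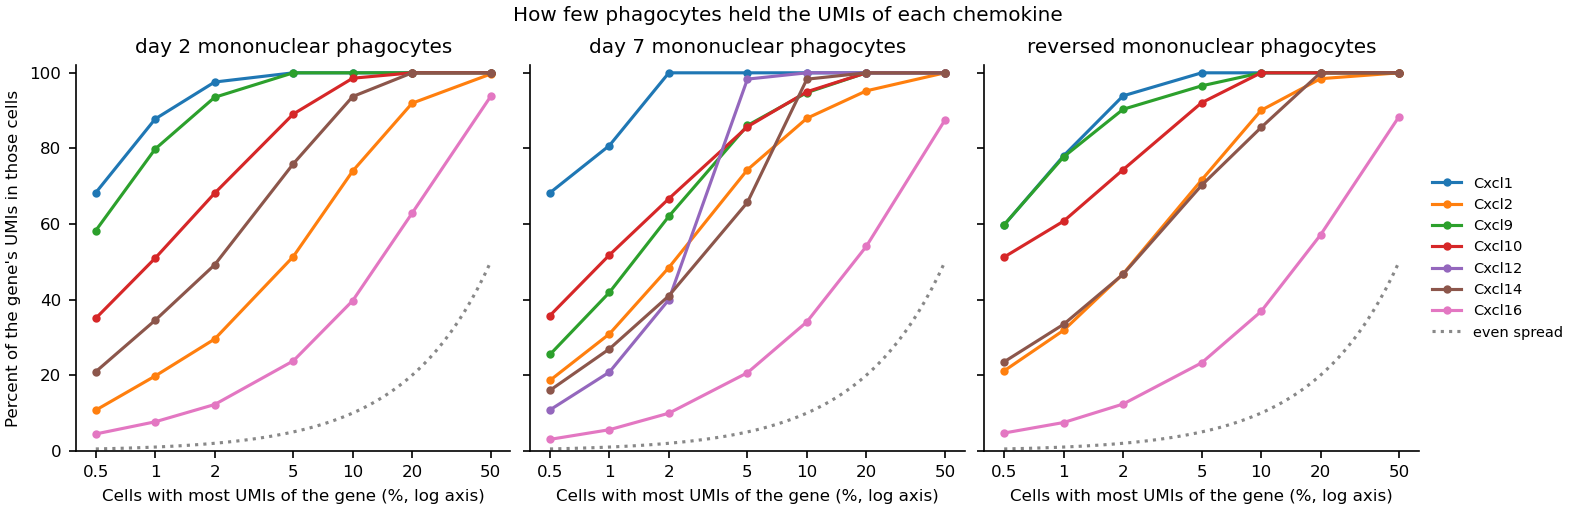
Percent of each chemokine's phagocyte UMIs (y axis) held by the cells richest in it (x axis, percent of cells, log scale), with 1 panel per library and a dotted line for an even spread. On day 7 the top 1% of cells held 51.8% of Cxcl10 and 5.59% of Cxcl16.

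Detection of the paired genes in the same cells was examined at 1000 UMIs per cell, since deeper cells detect every gene more often. On day 7 Cxcl10 was found in 9.26% (4.53 to 16.4%) of the 108 cells with Cxcl9 and in 4.28% (3.47 to 5.20%) of the other phagocytes, intervals that overlap. Without thinning the shares were 21.6% (17.2 to 26.6%) of the 319 cells with Cxcl9 and 12.1% (10.7 to 13.6%) of the others, so most cells with Cxcl9 showed no Cxcl10. In reversed phagocytes Cxcl10 was found at 1000 UMIs in 15.8% (3.38 to 39.6%) of the 19 cells with Cxcl9 and in 1.83% (0.916 to 3.25%) of the others, which do not overlap but rest on 3 cells with both. Without thinning it was there in 26.9% (15.6 to 41.0%) of the 52 cells and 7.56% (5.52 to 10.0%) of the others, which do not overlap. On day 2 Cxcl10 was found at 1000 UMIs in 28.6% (3.67 to 71%) of the 7 cells and in 3.33% (1.95 to 5.27%), which overlap. Without thinning it was then in 9 of 18 cells with Cxcl9 (26 to 74%) and in 10.2% (7.69 to 13.2%) of the others, which do not. On day 7 Cxcl2 was found in 77.8% (40.0 to 97.2%) of the 9 cells with Cxcl1 and in 9.01% (7.87 to 10.2%) of the other phagocytes. The counts at that depth were 5 of 5 cells with Cxcl1 (lower bound 47.8%) against 24.2% (20.5 to 28.1%) of the others on day 2 and 4 of 4 cells with Cxcl1 (lower bound 39.8%) against 13.1% (10.6 to 16.1%) of the others in the reversed library. On day 2, without thinning, it was in 76.9% (46.2 to 95%) of the 13 cells with Cxcl1 and in 52.9% (48.4 to 57.3%) of the others, which overlap, and in day 2 macrophages in 62.5% (24.5 to 91.5%) of the 8 cells and 62.4% (55.6 to 69%). Without thinning it was in 65.9% (50.1 to 79.5%) of the 44 day 7 phagocytes with Cxcl1 and 27.2% (25.4 to 29.1%) of the others. In the reversed library it was in 66.7% (41.0 to 86.7%) of the 18 cells and 25.9% (22.4 to 29.6%), and neither pair overlapped. At 500 UMIs the phagocyte intervals overlapped on day 2 (19.4 to 99.4% against 14.9 to 21.7%) but not on day 7. They also overlapped in the reversed library (1.26 to 98.7% against 9.50 to 14.8%). In day 7 tubule Cxcl2 was in 47.5% (31.5 to 63.9%) of the 40 cells with Cxcl1 and in 18.6% (15.7 to 21.8%) of the others without thinning. At 1000 UMIs it was in 3 of 9 cells with Cxcl1 (7.49 to 70.1%) and in 3.47% (2.23 to 5.12%) of the others, and at 500 UMIs in 0 of 7 with it. At 1000 UMIs the tubule intervals overlapped on day 2 (3 of 19 cells, 3.38 to 39.6%, against 2.52 to 4.76%) and in the reversed library (1 of 4 cells, 0.631 to 80.6%, against 1.17 to 2.53%). Without thinning they did not overlap on day 2, at 35.7% (24.6 to 48.1%) against 17.4% (15.2 to 19.8%). In the reversed library the unthinned shares were 47.4% (24.4 to 71.1%) against 9.37% (7.98 to 10.9%), also without overlap.

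**Figure D4:**
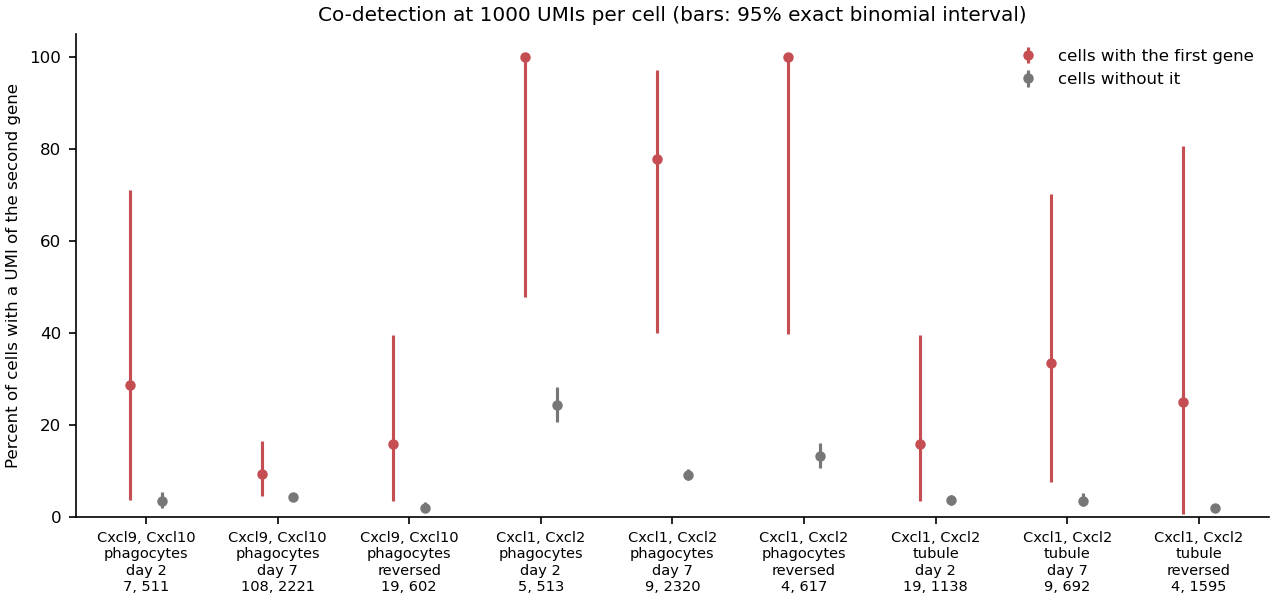
Percent of cells with a UMI of the second gene (y axis) among cells with the first gene and without it, at 1000 UMIs per cell, with exact 95% binomial intervals. The numbers under each pair are cells with and without the first gene. For Cxcl10 in day 7 phagocytes the values are 9.26% and 4.28%, and intervals are wide where few cells have the first gene.

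Cxcl12 was highest in day 7 stroma and lower there in the reversed library. Stromal Cxcl12 stood at 1059 (989 to 1133) CPM on day 7 (849 UMIs) and 126 (98.2 to 158) CPM in the reversed library (72 UMIs), a log2 ratio of -3.08 (-3.44 to -2.73). A UMI was found in 37 of 74 day 7 cells and 13 of 75 reversed cells, and at 1000 UMIs in 25.7% and 6.67%. In phagocytes, which should lack it, those shares at 1000 UMIs were 0.601% and 0.966%. Median depths of the stromal cells were 9261 and 5354 UMIs and of the phagocytes 6541 and 6799 UMIs. Stromal Cxcl14 stood at 598 (545 to 654) and 630 (566 to 698) CPM, a ratio of 0.08 (-0.13 to 0.28). The 13 day 2 stromal cells had 272 CPM of Cxcl12 and 230 CPM of Cxcl14, and 4 of them, in which fibroblast markers outweighed mural markers, had 548 and 482 CPM. The 7 sham cells, 1 of them of that kind, had no UMI of either, where the floor of 3 counts is 120 CPM.

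Other genes of the stromal cells differed as well. Fibroblast markers outweighed mural markers in 72 day 7 and 59 reversed cells, and in those cells Cxcl12 was 1070 and 147 CPM. Cxcl14 in those cells was 604 (551 to 660) and 758 (682 to 840) CPM, higher in the reversed library with no overlap, whereas over all stromal cells the intervals overlapped. The collagen genes Col1a1 (8188 and 2649 CPM) and Col3a1 (11299 and 2215 CPM) and the matrix gene Dcn (2817 and 1362 CPM) were lower in the reversed library, and the mural marker Rgs5 higher (241 and 771 CPM). Pdgfra, a fibroblast receptor, was 235 and 223 CPM. The Cxcl12 ratio was -2.03 under a stricter marker gate and -2.39 as a mean of per-cell values. The part of a change in the mix of fibroblasts was not tested. Of all stromal genes measured 5.39% were 2-fold or more higher and 5.72% lower, and of 4 chemokines 2 were lower, Cxcl12 and Cxcl9, with 43 of the 51 day 7 Cxcl9 UMIs in 1 cell.

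**Figure D5:**
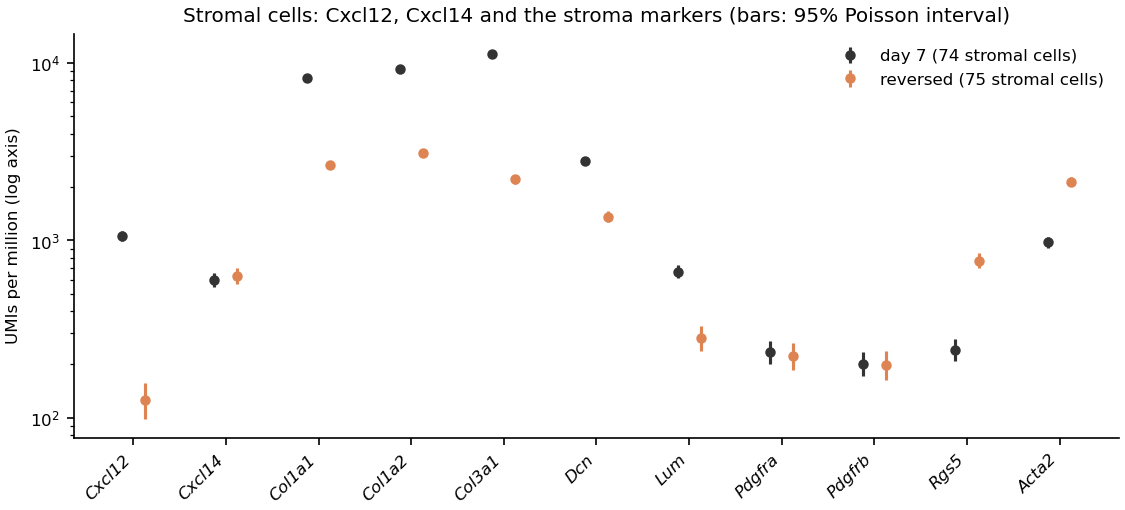
Level in stromal cells (CPM, log axis) on day 7 and in the reversed library for Cxcl12, Cxcl14 and the stroma markers, with exact 95% Poisson intervals. Cxcl12 lies at 1059 and 126 CPM and Cxcl14 at 598 and 630 CPM.

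Endothelium, another known source, had Cxcl12 at 26.7 (14.6 to 44.8), 65.8 (47.8 to 88.3), 35.2 (27.2 to 44.8) and 32.4 (24.1 to 42.5) CPM, highest on day 2. Day 2 over sham was 1.30 (0.41 to 2.28) and day 7 over day 2 -0.90 (-1.48 to -0.32), while the sham, day 7 and reversed intervals overlapped. The first ratio was 2.42 under the stricter gate. Summed stroma markers in endothelium stood at 32.4, 94.2, 153 and 138 CPM, and their part was not tested. In that first pair 4.16% of endothelial genes were 2-fold or more higher and 4.37% lower, and of 3 chemokines measured Cxcl12 was higher and Cxcl10 lower (42 and 20.9 CPM, with 21 of 22 sham UMIs in 1 cell). Loop of Henle cells had 23.6, 16.2, 24.7 and 53.2 CPM of Cxcl12, with reversed over sham at 1.17 (0.32 to 2.11). Proximal tubule cells had 7.18, 15, 17.6 and 8.57 CPM.

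Cxcl14 was found in phagocytes as well as in stroma. Its phagocyte levels were 26.4 (9.70 to 57.5), 32.9 (28.4 to 37.9), 21.7 (19.5 to 24.1) and 49.5 (43.4 to 56.1) CPM, and reversed over day 7 was 1.19 (0.94 to 1.42). From day 2 on macrophages had 53, 30.5 and 70.2 CPM, monocytes 22.6, 5.61 and 36.6 CPM and type 2 conventional dendritic cells 2.57, 6.29 and 19.9 CPM, so macrophages were the highest of these 3 kinds in each library. A UMI was found in 12.4%, 10.3% and 15.8% of phagocytes and 1.56%, 0.829% and 1.53% of T and natural killer cells, at the median depths given for Cxcl2. Tubule cells had 0.63, 0.935, 5.64 and 6.87 CPM from 7, 8, 33 and 70 UMIs, and with free RNA subtracted 0.532, 0.216, 1.24 and 3.49 CPM. Summed stroma markers in tubule cells, at 5.04, 15, 94 and 46.6 CPM, were also higher on day 7 and in the reversed library, and their part was not tested. Reversed over sham in tubule was 3.45 (2.33 to 4.82), or 1.81 at the 20% mitochondrial limit. In that pair Cxcl1, Cxcl2, Cxcl10 and Cxcl14 were past 2-fold higher, against 26% of all genes higher and 0.623% lower.

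Cxcl16 had the smallest ratio of highest to lowest library of the 7 genes in phagocytes. Its levels there were 366 (291 to 453), 331 (317 to 347), 490 (479 to 501) and 486 (466 to 506) CPM. Day 7 over day 2 was 0.56 (0.49 to 0.64), and reversed over day 7 was -0.01 (-0.08 to 0.05), an interval that includes 0. A UMI was found in 66.8%, 80.2% and 80.4% of phagocytes from day 2 on, at the median depths given for Cxcl2. At 1000 UMIs the shares were 21.6%, 36% and 38.3%, against 1.56%, 5.25% and 1.91% of T and natural killer cells.

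Kinds of phagocyte differed more in Cxcl16 than the libraries did. From day 2 on macrophages had 479 (454 to 505), 643 (628 to 659) and 672 (641 to 703) CPM and monocytes 173 (154 to 195), 155 (134 to 178) and 76.4 (48.5 to 115) CPM, with no overlap between the kinds in any of the 3 libraries. Ccr7-positive dendritic cells had 895 (819 to 977) CPM on day 7 and type 2 conventional dendritic cells 185 CPM.

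Tubule cells also had Cxcl16, at 59.4 (55 to 64.2), 111 (104 to 118), 166 (155 to 176) and 94.4 (88.5 to 101) CPM, highest on day 7 and lowest in sham with no overlap. Day 7 over day 2 was 0.58 (0.45 to 0.71) and reversed over day 7 -0.81 (-0.94 to -0.68). The order of the 4 levels was the same with TMM scaling (83.4, 107, 125 and 91.9 CPM), with mitochondrial UMIs left out of the totals (89.6, 138, 188 and 125 CPM) and with free RNA subtracted (60.9, 107, 142 and 84.6 CPM). Proximal tubule cells had 65.7, 135, 157 and 97.5 CPM, and injured tubule cells 121, 212 and 185 CPM from day 2 on. Intercalated cells, the acid-base cells of the collecting duct, had 17.2, 98.9, 126 and 35.6 CPM, with ratios of 2.52 (1.36 to 3.99) for day 2 over sham and -1.82 (-2.40 to -1.28) for reversed over day 7.

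Receptors were measured in the same libraries. From day 2 on Cxcr3, the receptor of Cxcl9 and Cxcl10, was at 179 (142 to 224), 190 (167 to 215) and 274 (242 to 309) CPM in T cells. Type 1 conventional dendritic cells had Cxcr3 at 117 CPM on day 7 and 101 CPM in the reversed library. Cxcr6, the receptor of Cxcl16, was at 422 (364 to 488), 560 (520 to 602) and 648 (598 to 701) CPM in T cells and 3.73 CPM in day 7 phagocytes. Cxcr4, the receptor of Cxcl12, was at 13.2, 21.3, 16.4 and 28.6 CPM in phagocytes and 8.62, 50.9, 34.7 and 9.14 CPM in intercalated cells. Ackr3 was at 95.1, 68.7, 128 and 40.2 CPM in collecting duct principal cells and 19.6, 20.8, 29.1 and 27.7 CPM in proximal tubule. Cxcr2, the receptor of Cxcl1 and Cxcl2, had 15, 34 and 7 UMIs in phagocytes from day 2 on, and Cxcr1, Cxcr5 and Ackr1 had too few UMIs to compare in any class.

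Of the other CXC ligands 3 of 3 measured in tubule were 2-fold or more higher on day 2 than in sham and 3 of 3 were lower for reversed over day 7, against 27.1% and 9.35% of all tubule genes. They are Cxcl5, Cxcl17 and Pf4, and Pf4 was at 0.809, 15.4, 27.5 and 6.29 CPM in tubule and 57.3, 610, 367 and 203 CPM in phagocytes, whose markers in tubule stood at 97, 662, 2326 and 910 CPM and whose part in the tubule values was not tested. Cxcl5, another neutrophil attractant, was at 39.3 (32.3 to 47.4), 35.2 (28.3 to 43.2) and 12.1 (6.75 to 19.9) CPM in injured tubule from day 2 on. Cxcl17 was at 2.87, 273, 69.4 and 21.3 CPM in intercalated cells, highest on day 2. Pf4, a macrophage and platelet ligand, was at 1107, 574 and 353 CPM in macrophages. Cxcl3, a further Cxcr2 ligand, was at 24.6, 3.12 and 5.72 CPM in phagocytes on day 2, day 7 and in the reversed library. It had no UMI in sham phagocytes, where the floor of 3 counts is 13.2 CPM, above the day 7 and reversed levels. The sheddase genes Adam10 and Adam17 were at 46.3, 48.4 and 50.3 and 45.4, 61.1 and 65 CPM in phagocytes.

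The genes most like each chemokine were listed by Pearson correlation of log2 levels over 43 sums of class and library, as a description over sums that share libraries and depth. For Cxcl1 they were Havcr1 (0.73), C3 (0.71) and Fst (0.70), of which Havcr1 is a marker used for the injured tubule. For Cxcl2 they were Cd14 (0.91), C5ar1 (0.90) and Csf1r (0.89), of which Csf1r is a marker used for the phagocytes. For Cxcl9 they were Aif1 (0.86), Mpeg1 (0.85) and Lacc1 (0.84). Cxcl10 was nearest to Stard3 (0.78), Vsir (0.78) and Msn (0.76). Cxcl12 was nearest to Col12a1 (0.88), Sulf1 (0.87) and Fbn1 (0.87), which include matrix genes, and Cxcl14 to Olfml3 (0.94), Steap3 (0.91) and Col14a1 (0.91). Cxcl16 was nearest to Basp1 (0.83), Ctsh (0.82) and Lacc1 (0.81).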

How the data were processed

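Single kidney cells were measured in 4 droplet libraries (10x 3′ chemistry, live cells sorted with DAPI) and, by Smart-seq2, in 768 wells of mixed time points. Both kinds of file are raw counts as the authors deposited them, of UMIs in droplets and of reads in wells. Cell Ranger, STAR, GRCm38 and mm10 are named in the submitters' processing notes. Deposited totals were 18649637 to 30462683 UMIs per droplet library.

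Filters were 200 or more genes and no more than 50% mitochondrial UMIs. The automatic Scrublet threshold marked 1, 11, 4 and 7 cells and had not worked, so the cells with the highest scores were removed at 0.8% per 1000 cells (187, 48, 160 and 96 cells). A class needed 2 markers, and 93.9% of cells were gated. Leiden clusters (29, resolution 1) gave the same class for 99% of cells classed both ways, with 133 gated stromal cells in stroma clusters and 30 in endothelium clusters, and 4.36% lay near a gate limit. The clusters were named by the same marker scores as the gate, so this agreement is in part built in. UMIs were summed per class and library. Intervals are exact Poisson for levels, exact binomial for ratios and Clopper-Pearson for shares. PCR without identifiers applies to the wells alone. No test was run, since groups have 1 library each: a gene counted as different at 2-fold with 30 or more UMIs in the pair. Named genes were the 7 chemokines, receptors, list genes with the largest ratios, and the 3 most alike genes. Ifng, Adam10, Adam17, Dpp4, other CXC ligands and the stroma markers were named outside that rule, after their values were seen. The chemokines are set by name and no measured value enters the rule, but they, the lists and the comparisons were chosen with earlier results of these data known. Free RNA was estimated at 6.33% to 17.7% of UMIs, from markers that a class should lack. Its profile was that of all deposited barcodes of the library, kept cells included. The subtraction therefore also takes out part of a class's own transcripts. Tools were Python 3.11.15, scanpy 1.11.5, leidenalg 0.10.2, scipy 1.17.1, R 4.3.3 and edgeR 4.0.16 (TMM factors only), and scripts were tested on simulated data. Promoters matched by symbol for 6 of 7 genes. Cxcl11 was not analysed here.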

Additional observations from a re-analysis of the deposited data

Results flagged for a closer look

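The chemokines were also detected in data outside the comparisons, the Smart-seq2 wells, whose time points the labels do not give by well. Of 768 wells, 542 had at least 10000 gene reads. A read was found in 96.7% of these wells for Cxcl16, 31% for Cxcl2, 28.2% for Cxcl10, 20.8% for Cxcl14, 10.7% for Cxcl9, 4.24% for Cxcl12 and 1.11% for Cxcl1, where a count of 0 allows up to 0.554%. The wells have no control group. Cxcl10 was in 37.9% (25.5 to 51.6%) of wells with Cxcl9 and 27.1% (23.2 to 31.3%) of the others, with overlapping intervals. Cxcl2 was in 16.7% (0.421 to 64.1%) of the 6 wells with Cxcl1 and 31.2% (27.3 to 35.3%) of the others, opposite in direction to the droplet phagocytes, also with overlapping intervals.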

How the results depend on the processing

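No paired analysis was possible because each group is 1 library, and for the same reason no replicate could be left out. Alternatives were run on 34 ratios, those of Cxcl1, Cxcl10 and Cxcl14 in tubule, Cxcl2, Cxcl9, Cxcl10 and Cxcl16 in phagocytes, Cxcl12 in endothelium and stroma and Cxcl14 in stroma, of which 17 were past 2-fold. Of 153 alternative values of the latter, 152 kept the direction and 149 stayed past 2-fold. The exceptions were Cxcl9 in phagocytes for day 2 over sham without the richest cells, and Cxcl10 in tubule for reversed over day 7 and reversed over sham. The chemokine ratios outside this set, including stromal Cxcl9 and endothelial Cxcl10, were not recomputed. Keeping doublets, and leaving mitochondrial UMIs out of the totals (chosen after seeing the data), moved none of the ratios beyond counting error.

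TMM factors moved Cxcl1 in tubule for day 7 over day 2 (-0.69), Cxcl2 (1.18) and Cxcl16 (-0.10) in phagocytes for reversed over day 7, and Cxcl10 in tubule (1.57 for day 2 over sham, 1.06 for day 7 over day 2 and -1.68 for reversed over day 7). Cxcl2 in phagocytes for reversed over day 7 was 1.12 with classes from clusters and 1.34 with free RNA subtracted. That subtraction put Cxcl14 in tubule at -1.30 for day 2 over sham and 1.50 for reversed over day 7. It put the type I interferon count in tubule for day 7 over day 2 at 0 of 7 in place of 5 of 8, and the share of all genes was not counted with it.

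Means of per-cell values gave -0.71 for Cxcl1 in tubule, day 7 over day 2, and 0.83 for Cxcl10, reversed over sham. In phagocytes they gave 1.18 for Cxcl2 and -0.0662 for Cxcl9, reversed over day 7, and for Cxcl16 -0.60 for day 2 over sham and 0.74 for day 7 over day 2. In stroma they gave -2.39 for Cxcl12 and -0.25 for Cxcl14.

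The 20% mitochondrial limit gave -1.07 for Cxcl1 in tubule, reversed over day 7, 1.81 for Cxcl14, reversed over sham, and for Cxcl10 1.01, -0.85 and 2.26 for day 7 over day 2, reversed over day 7 and reversed over sham. The stricter gate gave -1.86 for Cxcl2 in phagocytes, day 7 over day 2, 0.39 for Cxcl9, reversed over day 7, 2.42 for Cxcl12 in endothelium, day 2 over sham, -2.03 in stroma, and for Cxcl10 in tubule 1.54, 2.27 and -2.48 for day 2 over sham, day 7 over day 2 and reversed over day 7.

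Without the richest cell of each library (chosen after seeing the data) Cxcl9 in phagocytes was 0.38, 2.49, -0.16 and 2.72 in the order day 2 over sham, day 7 over day 2, reversed over day 7 and reversed over sham. Cxcl10 was 2.50, 0.31, -0.89 and 1.92, and Cxcl12 in stroma -3.53. Beyond each setting's construction the cause was not tested. In phagocytes and stroma few cells limit the sham values, at 58 and 7 cells.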

Other observations

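Cells left ungated, because no marker list scored high enough or a second list scored too close, held part of the chemokine UMIs. They were 6.34% of reversed cells and held 29.9% (26.6 to 33.3%) of the Cxcl10 of that library, where 9 cells with 5 or more UMIs held 83% of the ungated part. On day 7, 68 of 85 ungated Cxcl14 UMIs were in 1 cell.

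Ppbp, a platelet ligand, was at 34.6, 12.6 and 1.64 CPM in phagocytes from day 2 on, each library below the one before with no overlap of intervals. Dpp4, a protease that trims several CXC ligands, was at 133 (114 to 154) CPM in day 7 type 1 conventional dendritic cells and at 3.22 (1.47 to 6.11), 7.03 (4.17 to 11.1) and 25.7 (17.6 to 36.3) CPM in injured tubule from day 2 on, highest in the reversed library.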
